A study of Mus musculus with 9 samples.

Results

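The endothelin system was followed through 8 genes of 23361 listed in a mouse RNA-seq table. They are the ligand genes Edn1, Edn2 and Edn3, the receptor genes Ednra and Ednrb, the endothelin-converting enzyme genes Ece1 and Ece2, and Ecel1, a peptidase gene named for its similarity to the converting enzymes. They were taken by gene symbol, whatever their values, and all 8 were found and passed the filter on low counts. Poly(A)-selected RNA came from cells of mouse skin that were isolated by flow sorting, with the label melanocyte stem cells, the hair follicle's reserve of pigment cells. The mice were 10 weeks old and carried a genotype labelled TBPT, whose alleles the labels do not spell out and which all 9 libraries share. The study compared 3 groups of 3 libraries, labelled Quiescent, Active and UVB, the last named for a band of ultraviolet light in sunlight. Every sample carries the same treatment label, which names chemical hair removal or UVB, so it does not say which group was depilated. Comparing them asks how melanocyte stem cells labelled as activated or exposed to ultraviolet light differ from those labelled as quiescent.

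The libraries held 21045070 to 35131778 fragments assigned to genes. Levels in CPM are counts relative to the library total (per 1e+06) after scaling by trimmed mean of M-values (TMM). Levels in FPKM, the authors' fragments per kilobase of transcript, are used wherever genes are compared with each other. Between libraries the FPKM values followed the TMM scale rather than library totals alone. For Ece1, replicate 1 of Quiescent, Active and UVB had 53.7, 20.9 and 35.9 FPKM beside 257, 101 and 175 CPM. Markers of the labelled cell type differed widely between the groups. The summed level of 8 melanocyte markers was 74.3 to 120.2 CPM in the Quiescent libraries, 7653 to 12452 CPM in Active and 842 to 1026 CPM in UVB, and the summed level of 7 dermal fibroblast markers was 334451 to 451223, 4772 to 6056 and 22001 to 34315 CPM. Mitf alone made up 47.3, 53.8 and 64.0 CPM of the melanocyte sums in the Quiescent libraries. Unlike the sum it was lower in UVB than in Quiescent, at 23.8, 20.0 and 38.1 CPM. No marker of either list was at 0 throughout a group. The UVB libraries had 23353 to 30356 fragments of Xist and at most 2 of 4 Y-linked genes, against at most 12 and at least 4106 in the other libraries, so the UVB label and this difference in sex-linked transcripts cannot be told apart in any comparison with UVB. In bulk RNA, fewer cells of a type and less RNA per cell cannot be told apart either. Whether each library is a separate animal is not said in the labels, so the p-values speak only for the spread between libraries, which may be technical.

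Endothelins are short peptides first made as long precursors. Furin-type proprotein convertases release an inactive big endothelin, and endothelin-converting enzymes, zinc peptidases of the M13 family, cut it to the active peptide. The peptides act on 2 G protein-coupled receptors, which activate phospholipase C through Gq-class subunits: EDNRA responds mainly to endothelin 1 and endothelin 2, and EDNRB to all 3 peptides. In skin, endothelin 3 and EDNRB are needed for the melanocyte precursors to survive and spread from the neural crest, and keratinocytes release endothelin 1 that acts on melanocytes. ECEL1 is known mainly from neurons, and no endothelin is an established substrate of it.

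The coding sequences of the mature peptides are shown because the ligands differ in level while sharing most of the peptide that the receptors see. Each lies in exon 2 of 5 of its gene (GENCODE, GRCm38, the build also called mm10), reads 5′ to 3′, and has in capitals the codon of the last residue, the tryptophan after which a converting enzyme cuts.
Edn1, chr13:42303649-42303711, plus strand: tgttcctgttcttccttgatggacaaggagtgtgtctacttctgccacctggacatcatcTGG
Edn2, chr4:120161951-120162013, plus strand: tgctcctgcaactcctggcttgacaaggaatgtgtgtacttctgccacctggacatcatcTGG
Edn3, chr2:174761749-174761811, plus strand: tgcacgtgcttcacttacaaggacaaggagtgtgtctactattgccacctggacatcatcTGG
The 21 residues they encode were identical at 18 positions between Edn1 and Edn2, at 15 between Edn1 and Edn3 and at 15 between Edn2 and Edn3. The enzymes are shown at their zinc-binding motif, the catalytic centre of the M13 family, because Ecel1 shares it with Ece1 and Ece2. The 15 bases in capitals encode the motif, with 3 codons on either side.
Ece1, chr4:137957163-137957195, plus strand, exon 17 of 20: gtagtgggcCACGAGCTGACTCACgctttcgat
Ece2, chr16:20643881-20643913, plus strand, exon 16 of 19: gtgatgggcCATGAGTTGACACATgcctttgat
Ecel1, chr1:87149791-87149823, minus strand, exon 13 of 18: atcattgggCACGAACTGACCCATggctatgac
Over these 11 residues Ece1 and Ece2 were identical at 10, and Ecel1 was identical to each of them at 7. The receptor genes lie at chr8:77663031-77724464 (Ednra) and chr14:103814625-103844402 (Ednrb), both on the minus strand.

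All 3 ligands averaged below 3 FPKM in every group, and Ecel1 ranged from the lowest levels in Quiescent to the highest in the other groups. By FPKM, Ece1 led the 8 genes in Quiescent with 49.6 ± 4.81 FPKM (SD, n = 3), followed by Ece2, Ednrb and Ednra with 13 ± 2.44, 12.2 ± 13.9 and 6.05 ± 1.76 FPKM. Edn1 came next with 2.26 ± 0.78 FPKM, and Edn3, Ecel1 and Edn2 all averaged below 0.4 FPKM. In Active the order was Ecel1, Ednrb and Ece1, with 459.6 ± 129.0, 34.0 ± 5.24 and 22.9 ± 2.97 FPKM, then Ece2, Edn1, Ednra, Edn2 and Edn3. In UVB it was Ecel1, Ece1, Ednrb and Ednra, with 553 ± 199.0, 36.1 ± 0.531, 14.2 ± 7.61 and 10.1 ± 6.83 FPKM, then Ece2, Edn1, Edn2 and Edn3. Neighbours in these orders whose libraries overlapped were Ece2 and Ednrb, Ednrb and Ednra, Edn3 and Ecel1, and Ecel1 and Edn2 in Quiescent. In Active only Edn1 and Ednra overlapped, and in UVB Ednrb and Ednra, Ednra and Ece2, Edn1 and Edn2, and Edn2 and Edn3 did.

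**Figure D1:**
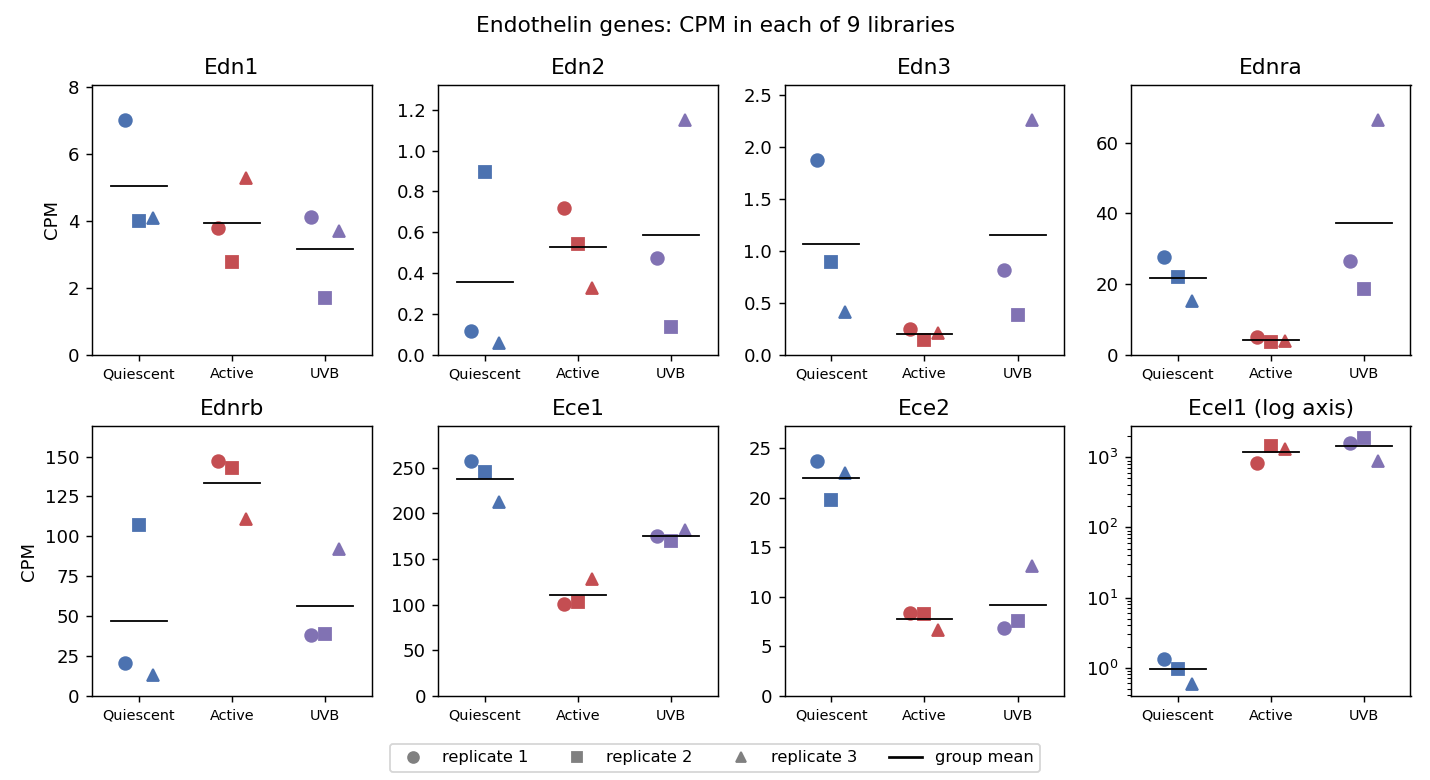
Level in CPM of each of the 8 endothelin genes in the 9 libraries, by group, with a black bar at the group mean and a symbol per replicate number; the Ecel1 axis is logarithmic and the others are linear. Ecel1 lies at 1.33 CPM or below in Quiescent and at 823 CPM or above elsewhere, and Ednrb in Quiescent replicate 2 (107 CPM) lies far above the other Quiescent libraries.

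Between Active and Quiescent, Ecel1 rose and Edn3, Ednra, Ece1 and Ece2 fell, while Edn1, Edn2 and Ednrb did not pass the test. That is 5 of 8 genes, where 58.3% of the 15078 tested genes passed (29.1% higher and 29.2% lower), at an adjusted p below 0.05 (edgeR's quasi-likelihood F test, Benjamini-Hochberg over all tested genes). The libraries of the 2 groups did not overlap for 6 of the 8, against 66.2% of all tested genes. Between UVB and Quiescent, Ecel1 rose and Ece1 and Ece2 fell, which is 3 of 8 where 49.0% of genes passed (25.8% higher and 23.2% lower), and 3 of 8 did not overlap where 57.6% of genes did not. Between UVB and Active, Ednra and Ece1 were higher and no member was lower, which is 2 of 8 where 24.0% of genes passed (14.8% higher and 9.19% lower), and 4 of 8 did not overlap where 46.7% of genes did not. The share of the 8 genes that passed was thus near or below that of all genes in each comparison. Their median log2 fold change was -0.73, 0.18 and 0.26 in these 3 comparisons, beside medians of 0.01, 0.02 and 0.01 over all tested genes. Both comparisons with Quiescent share its libraries and were not set against each other.

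The scale of the Quiescent group bears on every fold change against it. Its TMM factors were 0.66 to 0.748, against 1.16 to 1.23 in the other groups. With library totals alone in place of these factors, the all-gene median of the log2 fold change became 0.76 for Active and 0.74 for UVB against Quiescent. The higher and lower calls then went from 4390 and 4396 to 8651 and 2206 for Active, and from 3895 and 3498 to 8746 and 1246 for UVB. On that scale Active had 2 of the 8 genes above Quiescent and 3 below, and UVB had 2 above and 0 below. The UVB and Active groups had like factors, and 2 higher and 0 lower genes were counted between them on either scale.

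**Figure D2:**
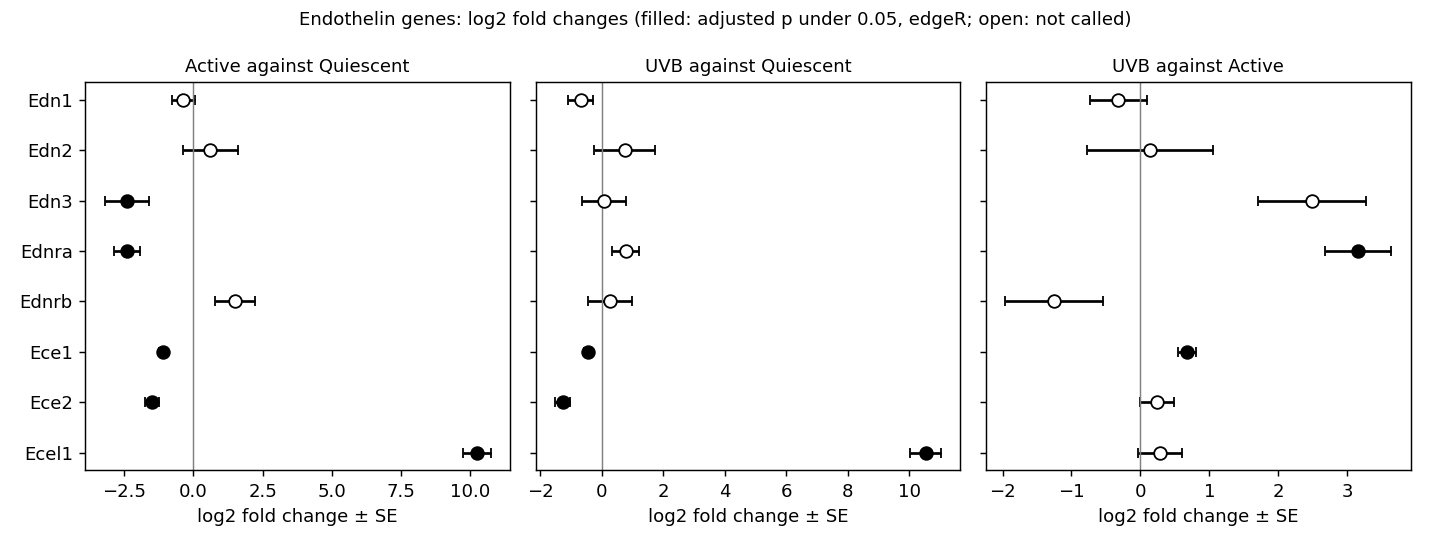
log2 fold change (point) with its standard error (bar) of the 8 endothelin genes in each of the 3 comparisons, filled where the adjusted p is below 0.05. Ecel1 stands at 10.24 and 10.52 against Quiescent and at 0.28 between UVB and Active, and Ednra at -2.39 in Active against Quiescent and 3.16 in UVB against Active.

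Edn1, which encodes the most widely made endothelin, was the leading ligand by FPKM in each of the 9 libraries, with 47.2% to 90.2% of the summed FPKM of the 3 ligands. Its level was 7.0, 3.99 and 4.07 CPM in the Quiescent libraries, 3.77, 2.76 and 5.27 CPM in Active, and 4.1, 1.68 and 3.68 CPM in UVB. The groups overlapped in every comparison. The log2 fold change was -0.36 ± 0.41 (SE) in Active and -0.68 ± 0.41 in UVB against Quiescent, with adjusted p = 0.475 and 0.202, and -0.32 ± 0.41 in UVB against Active (adjusted p = 0.608). The first and second of these turned positive with library totals alone, at 0.38 and 0.04. Endothelial cells are a main source of endothelin 1, and the summed level of 9 endothelial markers was 483 to 673 CPM in Quiescent, 219.6 to 302 CPM in Active and 472 to 508 CPM in UVB. From Quiescent to Active, 8 of these markers fell and 1, Eng, rose. Eng made up most of the sums in Active, with 192, 198 and 278 CPM. It stood at 143, 112 and 124 CPM in Quiescent and 299, 282 and 202 CPM in UVB. From Quiescent to UVB, 4 markers fell and 1 rose (1 and 1 with library totals alone). Keratinocytes are another source named above. The summed level of 7 keratinocyte markers was 2059, 574 and 124 CPM in the Quiescent libraries. It was 1115, 939 and 698 CPM in Active, and 634, 247 and 368 CPM in UVB. None of the 7 was called from Quiescent to Active, and 1 fell from Quiescent to UVB (0 with library totals alone). No marker of either list was at 0 throughout a group, and the part of either cell type in the Edn1 level was not tested.

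Edn2, the ligand gene known mainly from gut and ovary, rested on 1 to 34 fragments per library. In the Quiescent libraries it had 3, 15 and 1 fragments, against 23, 15 and 8 in Active and 15, 4 and 34 in UVB. Libraries of a group differed as much as the groups did, and at this depth no difference was detectable (adjusted p = 0.614, 0.553 and 0.932 for Active against Quiescent, UVB against Quiescent and UVB against Active).

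Edn3, the ligand gene of melanocyte development, was lowest in Active. It had 48, 15 and 7 fragments in the Quiescent libraries (1.88, 0.894 and 0.413 CPM), 8, 4 and 5 in Active (0.249, 0.145 and 0.204 CPM), and 26, 11 and 67 in UVB (0.819, 0.377 and 2.26 CPM). All 3 Active libraries lay below every Quiescent and every UVB library, and the Quiescent and UVB libraries overlapped. Edn3 fell by 2.40 ± 0.80 on the log2 scale from Quiescent to Active, a 5.28-fold difference with adjusted p = 0.029. The call was lost with library totals alone (log2 fold change -1.68, adjusted p = 0.089), without Quiescent replicate 1 (-1.68, adjusted p = 0.122), and without any 1 of the 3 Active libraries. It was also lost in limma on log2(FPKM + 0.1) and log2(FPKM + 1), at -1.33 and -0.34 (adjusted p = 0.058 and 0.132), a scale that understates changes of such low levels. UVB stood 5.63-fold above Active (log2 fold change 2.49 ± 0.79), which just missed the threshold with an adjusted p of 0.05004, and the adjusted p ranged from 0.015 to 0.181 over the alternatives. Without UVB replicate 3 the log2 fold change was 1.56 (adjusted p = 0.166), and in limma on log2(FPKM + 1) it was 0.35. UVB and Quiescent differed by 0.09 ± 0.71 (adjusted p = 0.923). The dermal papilla of the hair follicle is a known source of endothelin 3. The summed level of 4 papilla markers was 158, 97.5 and 45.0 CPM in the Quiescent libraries, 38.0, 32.6 and 67 CPM in Active, and 129.9, 96.7 and 82.3 CPM in UVB, and 1 of the 4 rose and 1 fell from Quiescent to Active. Crabp1 made up most of the Quiescent sums, with 154, 89.6 and 39.2 CPM, and had 8.79, 4.61 and 13.5 CPM in Active. Sox2 made up most of the Active sums, with 24.6, 23.8 and 51.6 CPM, against 0.313, 0.179 and 0.177 CPM in Quiescent. The sum thus joins genes of opposite direction. No papilla marker was at 0 throughout a group, and the part of papilla cells in the Edn3 level was not tested.

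Of the receptors, Ednra passed the test in 2 comparisons and Ednrb in none. Ednra, which encodes the receptor of vascular smooth muscle and mesenchyme, stood at 27.7, 22.1 and 15.2 CPM in the Quiescent libraries, 5.08, 3.52 and 3.8 CPM in Active, and 26.6, 18.5 and 66.4 CPM in UVB. Every Active library lay below every other library, and UVB replicate 3 stood well above the rest. Ednra fell 5.23-fold from Quiescent to Active (log2 fold change -2.39 ± 0.47, adjusted p = 0.002), lower in 3 of 3 Active libraries, and kept passing the test under all 18 alternatives (adjusted p from 3.3e-07 to 0.012). It was 8.96-fold higher in UVB than in Active (log2 fold change 3.16 ± 0.48, adjusted p = 0.003), and without UVB replicate 3 the log2 fold change was 2.44 (adjusted p = 0.002). The difference between UVB and Quiescent was 0.78 ± 0.44 (adjusted p = 0.176). It passed with library totals alone, at 1.48 (adjusted p = 0.019), and was 0.06 without UVB replicate 3.

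Smooth muscle and pericyte markers, of cells in which Ednra is known to act, also fell from Quiescent to Active, in 7 of 7 cases. Their summed level was 1494, 1124 and 1068 CPM in the Quiescent libraries, 105, 87.0 and 147 CPM in Active, and 320.0, 274 and 575 CPM in UVB. All 7 of the dermal fibroblast markers fell as well, and none of the markers in either list was at 0 throughout a group. From Quiescent to UVB, 6 of the 7 smooth muscle and pericyte markers and 7 of the 7 fibroblast markers fell. The part of either cell type in the Ednra level was not tested.

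Ednrb, which encodes the receptor of melanocyte precursors and also of endothelial and some glial cells, was highest in Active. It stood at 20.3, 107 and 13.1 CPM in the Quiescent libraries, 147, 143 and 111 CPM in Active, and 38.1, 38.7 and 92.2 CPM in UVB. Each Active library exceeded each library of the other groups, although Quiescent replicate 2 came close to the lowest of them. The log2 fold change of Active against Quiescent was 1.52 ± 0.72, a 2.87-fold difference that did not pass the test (adjusted p = 0.10). Without Quiescent replicate 2 it was 3.0 with adjusted p = 9.5e-04, and it also passed with library totals alone (2.22, adjusted p = 0.026) and in limma on log2(FPKM + 1) and log2(FPKM + 0.1), with adjusted p = 0.030 and 0.029. UVB against Quiescent gave 0.27 ± 0.71 (adjusted p = 0.777), and 1.75 without Quiescent replicate 2 (adjusted p = 0.012). UVB against Active gave -1.25 ± 0.71, a 2.38-fold difference (adjusted p = 0.236), which passed without Quiescent replicate 2, a library of neither group that shares the estimate of spread, and in the fit of these 2 groups alone (adjusted p = 0.039 in each case).

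The Quiescent library with the high Ednrb level also had the highest summed macrophage, melanocyte and hair matrix markers of its group. The summed level of the markers Csf1r, Adgre1, Cd68 and Lyz2 was 221, 1399 and 138 CPM in the Quiescent libraries, 58.6, 65.6 and 24.6 CPM in Active, and 398, 432 and 903 CPM in UVB. The highest sum within Quiescent and within UVB thus fell in the library with the highest Ednrb of its group, replicate 2 and replicate 3. In Active, where Ednrb was highest, all 4 macrophage markers were lower than in Quiescent, or 2 of 4 with library totals alone. The 8 melanocyte markers summed to 95.5, 120.2 and 74.3 CPM in the Quiescent libraries, 12452, 7653 and 8068 CPM in Active, and 999.8, 842 and 1026 CPM in UVB. For 4 markers of the hair matrix and inner root sheath the sums were 2.07, 15.1 and 3.07 CPM, then 306, 501 and 79.3 CPM, then 2.8, 1.06 and 38.2 CPM. The sums of these lists, too, peaked in Quiescent replicate 2 and UVB replicate 3 within those groups, and like Ednrb they were highest in Active. Within UVB, replicate 3 also had the highest sums of endothelial, smooth muscle and pericyte, and dermal fibroblast markers. The 9 endothelial markers summed to 673, 483 and 490.0 CPM in the Quiescent libraries, lowest in replicate 2. In Active their sums were lower, at 219.6, 221 and 302 CPM. The sum of 8 Schwann cell (glial) markers peaked in Quiescent replicate 2 (689 CPM) and UVB replicate 1 (1503 CPM). Single melanocyte markers were divided. In Quiescent replicate 2, Dct, Tyr, Tyrp1 and Pmel were the highest of the group, but Sox10, Mitf, Mlana and Kit were not. In UVB replicate 3, Sox10 and Mlana were not the highest, while the other melanocyte markers were. No marker of the lists named here was at 0 throughout a group, and the part of these cell types in the Ednrb level was not tested.

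**Figure D3:**
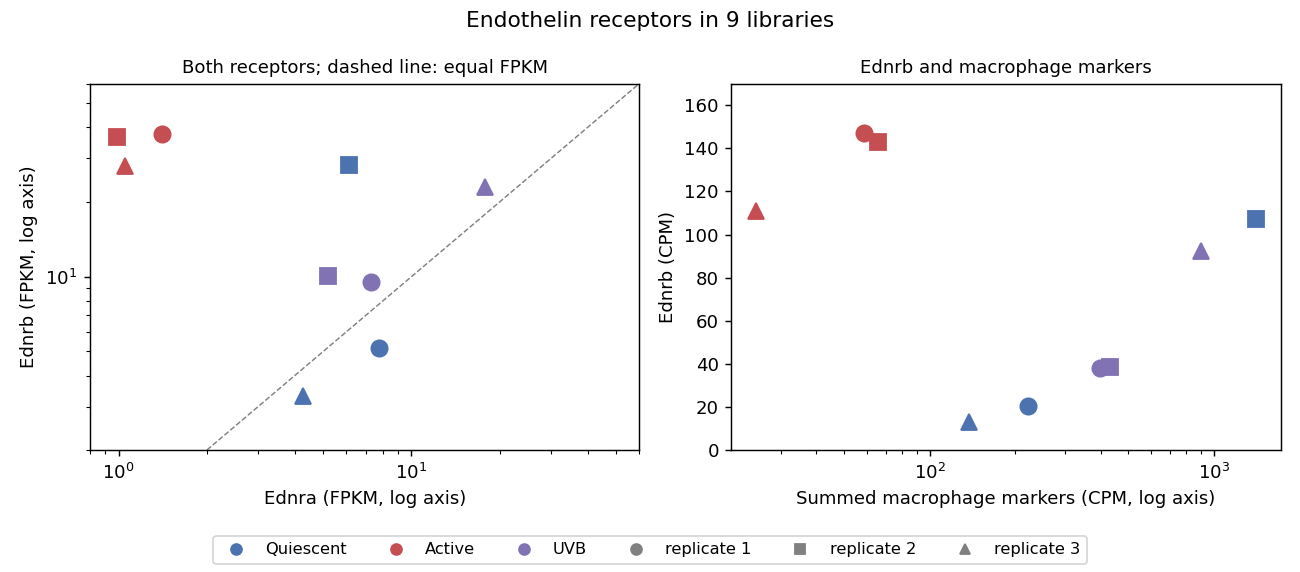
Left, Ednra against Ednrb in FPKM per library on logarithmic axes, with equal levels on the dashed line; right, Ednrb in CPM against the summed CPM of 4 macrophage markers on a logarithmic axis, with a colour per group. The Active libraries lie apart on the left at an Ednrb to Ednra ratio of 26.6 to 37.0, and on the right they combine the highest Ednrb with 24.6 to 65.6 CPM of macrophage markers.

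A ratio of the receptors within a library does not depend on scaling between libraries. By FPKM, the Quiescent libraries had 0.663, 4.61 and 0.775 times as much Ednrb as Ednra. The ratio was 26.6, 37.0 and 26.7 in Active, and 1.3, 1.93 and 1.28 in UVB. All Active libraries were far above the others, and the UVB libraries lay inside the Quiescent range. The mean log2 ratio, with 0.1 FPKM added to each level, was 4.78 ± 0.26 in Active, 0.41 ± 1.54 in Quiescent and 0.56 ± 0.33 in UVB (SD, n = 3). Active exceeded Quiescent by 4.36, or 20.5-fold, and UVB was 18.6-fold below Active, each with a two-sided exact permutation p = 0.1, the smallest that 20 splits of 3 against 3 libraries allow. The first difference was 5.25 without Quiescent replicate 2, and with 1 FPKM added to each level the differences were 3.61 and -3.52. UVB and Quiescent differed by 0.14 (exact permutation p = 1.0).

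Both converting enzyme genes were highest in Quiescent. Ece1, which encodes the main endothelin-converting enzyme, stood at 257, 245 and 212 CPM in the Quiescent libraries, 101, 103 and 128 CPM in Active, and 175, 169.5 and 182 CPM in UVB. The groups did not overlap in any comparison, with UVB between the others. Ece1 fell 2.15-fold from Quiescent to Active (log2 fold change -1.11 ± 0.13, adjusted p = 1.0e-04) and was 1.59-fold higher in UVB than in Active (0.67 ± 0.13, adjusted p = 0.008), with all 3 libraries of a group on the same side each time. Both calls held under all 18 alternatives, although with library totals alone the first was only -0.36 (adjusted p = 0.035). The 1.35-fold difference between UVB and Quiescent (-0.44 ± 0.12, adjusted p = 0.018) was less settled. It turned to 0.28 with library totals alone (adjusted p = 0.093) and missed the threshold without Quiescent replicate 1, UVB replicate 1 or UVB replicate 2 (adjusted p = 0.061, 0.058 and 0.057).

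Ece2, which encodes a converting enzyme with an acidic pH optimum found mainly in neural and endocrine cells, stood at 23.7, 19.8 and 22.5 CPM in the Quiescent libraries, 8.35, 8.3 and 6.66 CPM in Active, and 6.9, 7.57 and 13.1 CPM in UVB. Every Quiescent library lay above every other library, and Active and UVB overlapped. Ece2 fell 2.83-fold in Active (log2 fold change -1.50 ± 0.25, adjusted p = 8.9e-04) and 2.4-fold in UVB (-1.26 ± 0.25, adjusted p = 0.003) against Quiescent, and UVB and Active differed by 0.24 ± 0.25 (adjusted p = 0.518). With library totals alone the fall was 0.75 in Active (adjusted p = 0.026), and in UVB it missed the threshold at -0.54 (adjusted p = 0.089).

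The level of Ece2 is uncertain because a readthrough gene that joins Eef1akmt4 to Ece2 (Gm49333, chr16:20611610-20645920, GENCODE) overlaps it on the same strand, and neither Eef1akmt4 nor Gm49333 is a name in the table. The authors' FPKM per counted fragment of Ece2, relative to Quiescent replicate 1 and after removal of the factor shared by a library, was 0.863 to 1.07 in Quiescent, 1.4 to 1.62 in Active and 1.04 to 1.44 in UVB. For the other 7 genes it was 0.996 to 1.05, and the cause of the difference for Ece2 was not tested. On the FPKM scale Ece2 therefore differed less, with a log2 fold change of -0.80 in Active and -0.85 in UVB against Quiescent in limma on log2(FPKM + 1) (adjusted p = 0.006 and 0.005). Ece1 made up 72.6% to 86.3% of the summed FPKM of the converting enzyme genes in the 9 libraries.

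Ecel1 was nearly silent in Quiescent and among the most abundant transcripts of the other groups. The Quiescent libraries held 34, 16 and 10 fragments of it, or 1.33, 0.954 and 0.591 CPM. It stood at 823, 1461 and 1309 CPM in Active and at 1588, 1863 and 899 CPM in UVB. Its rank by FPKM among all genes was 13253, 13797 and 13902 in Quiescent, against 224, 123 and 134 in Active and 103, 74 and 173 in UVB. Ecel1 rose 1212-fold in Active (log2 fold change 10.24 ± 0.50, adjusted p = 2.5e-06) and 1466-fold in UVB (10.52 ± 0.50, adjusted p = 3.5e-06) against Quiescent, in 3 of 3 libraries each. Both folds rest on few Quiescent fragments: over the alternatives the log2 fold change ran from 8.36 to 10.98 in Active and from 8.59 to 11.23 in UVB, lowest with 1 FPKM added to each level and highest with library totals alone. Active and UVB overlapped and differed by 0.28 ± 0.32 (adjusted p = 0.572), with an interval from -0.36 to 0.91 on the log2 scale.

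Genes of the pigment and glial lineages from the neural crest were high in the same libraries as Ecel1. Sox10, a transcription factor of both lineages, stood at 3.99, 2.21 and 0.295 CPM in the Quiescent libraries, 551, 561 and 661 CPM in Active, and 528, 581 and 312 CPM in UVB. Dct and Tyr, which encode enzymes of melanin synthesis, separated the groups in another way: Dct had 7232, 4746 and 4722 CPM in Active but 258, 145 and 399 CPM in UVB, and Tyr 677, 387 and 359 CPM in Active but 28.6, 21.3 and 36.4 CPM in UVB. Ecel1 averaged 1198 CPM in Active and 1449.7 CPM in UVB. Of the 8 melanocyte markers, 8 rose in Active and 6 in UVB against Quiescent, and 7 were lower in UVB than in Active. The summed level of 8 Schwann cell markers, genes of the glia of peripheral nerves, was 657 to 689 CPM in Quiescent, 1165 to 1679 CPM in Active and 1219.8 to 1503 CPM in UVB. Of these, 4 were higher and 2 lower in Active, and 4 higher and 1 lower in UVB, against Quiescent. No marker of either list was at 0 throughout a group, and the part of either cell type in the Ecel1 level was not tested.

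**Figure D4:**
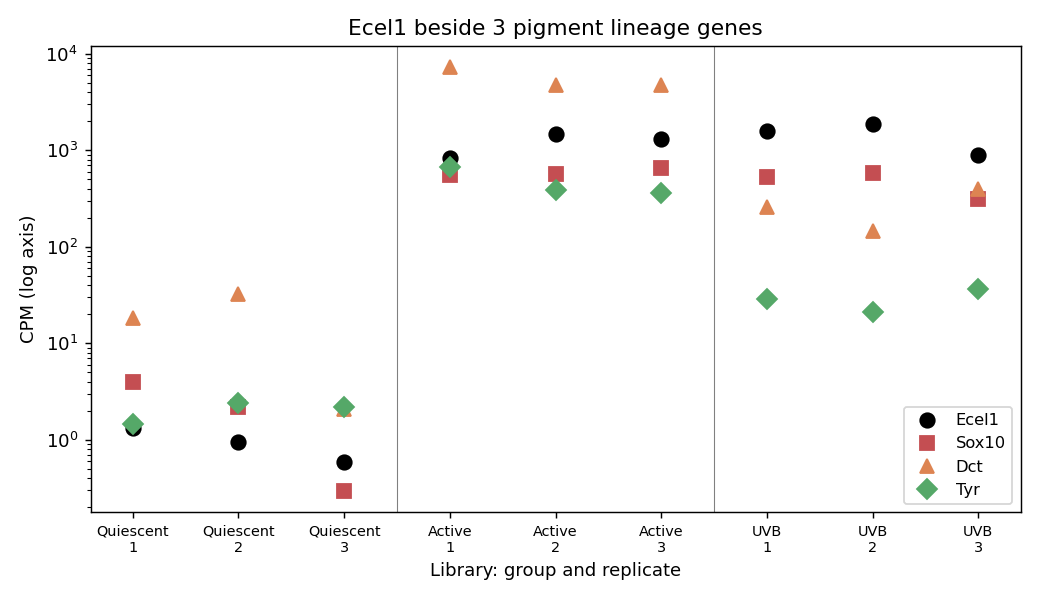
CPM of Ecel1, Sox10, Dct and Tyr in each of the 9 libraries on a logarithmic axis, by group. Ecel1 and Sox10 are high in both Active and UVB, while Dct and Tyr drop from at least 4722 and 359 CPM in Active to at most 399 and 36.4 CPM in UVB.

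The counts called in the 5 lists of other pathway genes are read against the shares over all tested genes, 58.3% in Active and 49.0% in UVB against Quiescent and 24.0% between UVB and Active. Of 6 proprotein convertases, 1 rose and 3 fell from Quiescent to Active, 1 rose and 2 fell from Quiescent to UVB, and 2 were higher in UVB than in Active. With library totals alone the first pair of counts was 3 and 3 and the second 3 and 2. Their median log2 fold changes were -1.46, -0.29 and 0.93 in these comparisons. Pcsk5, which encodes a convertase of secreted precursors, stood at 57.0, 53.6 and 80.3 CPM in the Quiescent libraries, 9.29, 9.32 and 9.65 CPM in Active, and 38.8, 39.1 and 59.9 CPM in UVB. It fell 6.75-fold in Active (log2 fold change -2.76 ± 0.22, adjusted p = 1.8e-05) and was 4.88-fold higher in UVB than in Active (adjusted p = 6.6e-04). Pcsk6, a related convertase gene, averaged 371 ± 109.0 CPM in Quiescent and fell to 19.6 ± 12.0 CPM in Active and 51.1 ± 6.89 CPM in UVB (adjusted p = 5.7e-05 and 5.7e-04). Without Active replicate 3, the log2 fold change of Pcsk6 in Active moved from -4.24 to -4.85.

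Among the 4 other M13 peptidases, only Mme and Phex passed the filter on low counts, and Kel, the blood group peptidase gene, was at 0 fragments throughout. Mme encodes neprilysin, which degrades endothelins among other peptides. It stood at 15.3, 20.4 and 14.2 CPM in the Quiescent libraries, 6.95, 4.53 and 5.85 CPM in Active, and 14.7, 5.21 and 25.2 CPM in UVB. It was 2.87-fold lower in Active than in Quiescent (log2 fold change -1.52 ± 0.48, adjusted p = 0.023), a call lost in 4 of 18 alternatives, where the adjusted p reached 0.173. The UVB libraries spanned the range of both other groups.

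Of 8 G protein alpha subunit genes, 2 rose and 3 fell from Quiescent to Active, 2 rose and 1 fell from Quiescent to UVB, and UVB had 2 above and 1 below Active. With library totals alone the first pair of counts was 5 and 0 and the second 6 and 0, so no direction is given for these genes as a group, and their medians were -0.15, 0.07 and 0.31. The Gq-class gene Gna11 rose from 77.3, 73.8 and 67.8 CPM in the Quiescent libraries to 109, 107 and 102.0 CPM in the Active ones (log2 fold change 0.54 ± 0.10, adjusted p = 0.001). The related gene Gnaq stood at 82.3 ± 10.4 CPM in Quiescent, 85.6 ± 4.56 CPM in Active and 121.0 ± 8.96 CPM in UVB, where it was 1.47-fold above Quiescent (adjusted p = 0.004). Both changes were under 1.5-fold on the TMM scale, yet exceeded the spread between libraries, and over the alternatives each log2 fold change reached up to 1.28. Gna14, also of the Gq class, had lower CPM in Active, at 2.65, 2.03 and 1.31 CPM against 5.51, 4.53 and 4.49 CPM in Quiescent. No test value is given for Gna14.

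Of 11 genes of the phospholipase C and calcium arm, 3 rose and 5 fell from Quiescent to Active, and 4 rose and 4 fell from Quiescent to UVB (3 and 3, and 7 and 2, with library totals alone). Between UVB and Active, 5 were higher and none lower. The medians were -0.94, 0.12 and 0.58. Protein kinase C genes, whose products respond to the diacylglycerol that phospholipase C releases, made up 4 of the 5 that fell in Active. Prkcb stood at 68.4, 77.4 and 103 CPM in the Quiescent libraries, 2.24, 1.99 and 2.04 CPM in Active, and 20.9, 22.3 and 34.3 CPM in UVB. It fell 39.4-fold in Active (log2 fold change -5.30 ± 0.26, adjusted p = 2.6e-06) and was 12.3-fold higher in UVB than in Active (adjusted p = 1.4e-04). Prkce fell 5.67-fold in Active and 4.37-fold in UVB from 142 ± 33.5 CPM (adjusted p = 7.7e-06 and 2.7e-05). Itpr2, an inositol trisphosphate receptor gene of the calcium store, rose 3.55-fold in UVB from 17.7 ± 1.71 to 62.9 ± 8.49 CPM (adjusted p = 2.0e-04).

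Of 11 genes that switch off such receptors, 3 rose and 3 fell from Quiescent to Active, and 6 rose and 3 fell from Quiescent to UVB (7 and 2, and 8 and 2, with library totals alone). Only 1 was called between UVB and Active, and the medians were 0.11, 0.40 and 0.29. Rgs4 and Rgs5 encode regulators that shorten G protein signals, and Rgs5 is also 1 of the pericyte markers above. Rgs4 stood at 29.4, 18.1 and 17.8 CPM in the Quiescent libraries, 1.12, 1.56 and 1.92 CPM in Active, and 2.3, 2.26 and 2.77 CPM in UVB, a 14.2-fold fall in Active (adjusted p = 1.5e-05) and an 8.91-fold fall in UVB (adjusted p = 6.0e-05). Rgs5 fell 29.3-fold in Active (adjusted p = 2.9e-05). Grk3, a receptor kinase gene listed under its older symbol Adrbk2, went the other way, from 3.79, 11.4 and 2.48 CPM in Quiescent to 47.2, 61.4 and 67.2 CPM in Active and 86.1, 93.1 and 67.8 CPM in UVB (adjusted p = 4.3e-04 and 3.6e-04). Its log2 fold changes of 3.33 and 3.82 became 4.2 and 4.69 without Quiescent replicate 2, the library with the high Ednrb. Rgs16, of the same gene family as Rgs4 and Rgs5, did not fall with them. It rose 5.96-fold from Quiescent to Active (log2 fold change 2.58 ± 0.55, adjusted p = 0.004). The Active libraries held 145, 159 and 313 CPM of it, against 39.4, 40.7 and 23.3 CPM in the Quiescent ones. Its UVB levels were spread widely, at 275, 138 and 58.8 CPM.

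The genes whose profiles were most like those of the 8 were found from the root mean square difference between log2 CPM values over the 9 libraries, each gene centred on its own mean. These differences are not scaled to a gene's own variation, so they do not rank closeness across the 8 genes. Ece1, with a root mean square of 0.47 about its own mean, had the smallest differences, to Dnmbp, Tcf7l1 and Tcf7l2, at 0.07, 0.08 and 0.09. Tcf7l1 averaged 54.6, 24.8 and 41.2 CPM in Quiescent, Active and UVB. For Ece2 the nearest were B4galt4, Serinc5 and Pdcd4, at 0.12, 0.13 and 0.14. For Ednra they were Meox1, Gli2 and Lepr, at 0.25, 0.26 and 0.35, and Gli2 averaged 19.2, 3.07 and 25.6 CPM. Ednrb had no match closer than 0.39, reached by Slc37a2, followed by Pla2g4e and Aph1c at 0.49 each. Ecel1, with a root mean square of 4.89 about its own mean, was nearest to Foxd3, Cntn6 and Crym, at 0.54, 0.56 and 0.77. Foxd3 averaged 0.177, 219 and 171 CPM in the 3 groups, and Cntn6 0, 134 and 90.2 CPM. The ligands had matches at 0.19 to 0.27 for Edn1 (AA388235, Glt28d2 and Nmnat3), 0.31 to 0.43 for Edn3 (Susd2, Mmrn1 and Myom3) and 0.49 to 0.54 for Edn2 (Bnc1, Tor4a and Rab20). The small numbers of Edn2 and Edn3 fragments limit how close any match can be.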

How the data were processed

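The 9 libraries were grouped by their labels, 3 each in Quiescent, Active and UVB. Per the submitters' processing notes, cutadapt 1.8, TopHat2 2.0.13, Cuffdiff 2.2.1 and the genome build mm10 were used. Not given in the sources used here are the annotation and the strand setting, so an overlapping gene on the other strand (of Edn1, Ednra and Ece1) may not have been told apart. The deposited table holds, per the file headers, the authors' estimated counts (raw fragments per gene) and their FPKM. Of the counts 1.08% were not whole to within 1e-06, none of them among the 72 values of the 8 genes, and no value of these had a failed status.

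Counts were rounded and tested in R 4.3.3 with edgeR 4.0.16 (quasi-likelihood F test, TMM factors, 1 fit of all 9 libraries, two-sided). filterByExpr removed 8283 of 23361 genes and left 15078, over which p-values were adjusted (Benjamini-Hochberg, threshold 0.05). A standard error is the log2 fold change divided by the square root of F, without its sign. The replicate coefficient of variation was 0.28. Libraries of a group differed beyond sampling noise (chi-square per degree of freedom 24.5 to 114.0), so none was merged.

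The genes, pathway lists, markers and tests were chosen with earlier results of these data known. Named are the 8 genes, up to 4 genes with the smallest adjusted p per list and comparison (2 of the highest mean CPM where none passed), marker genes, and the 3 nearest profiles, predicted genes left out. Furin, Pcsk7, Gna14 and Kel were named in addition. Grk2, Grk3 and Adgre1 were matched through their older symbols. Alternatives were DESeq2's size factors in edgeR, library totals alone, DESeq2 1.42.0, limma 3.58.1 on log2(FPKM + 0.1) and log2(FPKM + 1), all genes with a count, a filter of 50 counts in 3 libraries, a replicate block, only the 2 groups compared, and leaving out each library. Tests were tried on simulated data. Coding sequences came from GENCODE for GRCm38.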

Additional observations from a re-analysis of the deposited data

How the results depend on the processing

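Of 422 values of single genes among the 8 under the alternatives, 380 kept their direction and their side of the threshold, 11 lost a call, 14 gained one and 17 changed direction. With library totals alone, Edn1 turned to 0.38 in Active and 0.04 in UVB and Ece1 to 0.28 in UVB against Quiescent, Gnai3 to 0.16 and 0.32, and Prkca to 0.06 in UVB; these follow the shift of all genes given above. In UVB against Active, Edn2 became -0.14 in limma on log2(FPKM + 0.1), and Ece2 -0.05 and -0.06 in limma on log2(FPKM + 1) and log2(FPKM + 0.1); the cause was not tested. Leaving out 1 library gave, for UVB against Quiescent, -0.16 to 2.61 for Edn2, -0.84 to 0.81 for Edn3, -0.28 to 1.75 for Ednrb and -0.36 to 1.03 for the log2 ratio of Ednrb to Ednra. For UVB against Active it gave -0.79 to 0.59 for Edn2 and -0.11 to 0.41 for Ece2. The number of all genes called between UVB and Active ran from 1452 (without Active replicate 2) to 4226, beside 3612, and was 1806 without Active replicate 1 and 1938 without UVB replicate 1. With only the libraries of UVB and Active, 4 of the 8 genes were called in place of 2. Same-numbered libraries deviated together with r of -0.17 to 0.23, not every one correlated best with its own number, and the labels do not say that a number pairs them. With the replicate block 8223, 6809 and 2830 genes were called in place of 8786, 7393 and 3612, no call of the 8 genes changed, and Edn3 in UVB against Quiescent became -0.05. Edn2 and Edn3 gave no value under the filter of 50 counts, DESeq2 gave Ednrb no adjusted p, and Edn3 gave none for Active against Quiescent with only these groups. Depth limits Edn2 and Edn3 in all libraries and Ecel1 in Quiescent.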
